A study of Homo sapiens with 2 samples.

Results

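The heat shock factor gene HSF1 and 9 chaperone genes, HSPA1A, HSPA1B, HSPA8, HSPH1, HSP90AA1, HSP90AB1, DNAJB1, HSPD1 and HSPE1, were examined for SOX9 occupancy in HT-29 cells. These 10 genes, of 20163 protein-coding genes in the annotation, were listed by name as members of the classical heat shock set. The rule itself uses no measured value, but the list was chosen with earlier results of these data known, so it is not a blind choice. A SOX9 peak was assigned to a gene when its summit, the position the peak caller gave for its maximum, lay within 1 kb of a transcription start site (TSS) of the gene, in which case it is called a promoter peak, or in the gene or within 10 kb of it. By this rule the genes held 18 of the 17847 SOX9 peaks, 11 of them promoter peaks and 7 in or near the rest of the gene. Distances are given in the direction of the gene, negative values being upstream, and all coordinates are hg19.

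HT-29 is an established human colorectal adenocarcinoma line. It was grown overnight without a further treatment named in the labels, fixed with formaldehyde, and used for 1 chromatin immunoprecipitation (ChIP) library with an antibody to SOX9 and 1 library of input DNA, the sheared chromatin that did not go through the precipitation. Each library held 12320108 tags, the input having been reduced to the size of the ChIP library by the authors. With 1 library of each kind no value has a replicate error, no test between ChIP and input was made here, and the 95% intervals cover counting error only. The cells were not heat shocked as far as the labels state, and neither HSF1 binding, NF-Y binding nor expression is part of these libraries.

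SOX9 is a transcription factor of the high mobility group family that marks stem and progenitor cells of the intestinal crypt. Heat shock factor 1 is a transcription factor that trimerises under protein-folding stress and binds arrays of inverted GAA units, called heat shock elements, in the promoters of chaperone genes. NF-Y is a trimeric factor that binds CCAAT boxes, which occur in many promoters of this class as well as in promoters of cell cycle genes.

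A SOX9 summit lay within 1 kb of an annotated TSS in 10 of 10 genes, whereas this was so for 44.8% of all protein-coding genes. Genes with many annotated TSSs have more chances to be near a summit, and among genes with at least the members' median number of TSSs the share was 62.4%. With the canonical transcript alone, a setting chosen after seeing the data, all 10 genes kept a promoter peak, against 41.4% of all genes. With only the 5′-most coding TSS, 7 of 10 did, against 38.9%. HSPA8, HSP90AA1 and DNAJB1 did not, since each has an alternative transcript that starts farther upstream. HSPD1 also has such a transcript, and was counted only through a separate peak at +753 bp from that start, closest to the TSS of MOB4. By the wider rule, a summit in the gene or no more than 10 kb away, the counts were 10 of 10 and 59.7%. The 11 promoter peaks held a median of 65 tags (29 to 275) and a median fold enrichment over the local input of 9.89. Over all 8655 promoter peaks the medians were 56 tags (quartiles 38 and 81) and 10.0 (quartiles 7.65 and 14.1). Thus 7 of the 11 exceeded the median promoter peak in tags and 5 of the 11 exceeded it in fold enrichment. Every gene of the set had a promoter peak, but the peaks varied in size. In tags, HSPH1 (275), HSPA8 (129) and the peak shared by HSPD1 and HSPE1 (96) lay above the upper quartile. HSP90AA1 (37), HSPA1A (30) and a DNAJB1 peak beside TECR (29) lay below the lower one. In fold enrichment, the HSPD1 peak beside MOB4 (18.9) and HSPA1A (16.96) lay above the quartiles. DNAJB1 at its canonical TSS (7.14), HSPA1B (5.01) and HSPH1 (4.96) lay below them.

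HSF1, the regulator of the set, had a SOX9 peak over its own TSS. The peak (chr8:145514711-145516025) held 66 tags (51.0 to 84.0) at a fold enrichment of 8.98, and its summit lay at −44 bp from the nearest TSS and at −57 bp from the canonical one. The SOX9 signal reached 24 tags per bin of 32 nt and the input signal 6. A CCAAT box on the opposite strand was centred at −80 bp from the summit, and no pair of facing heat shock units lay within 100 bp of it. Within 500 bp of the TSS there were 56 ChIP and 18 input tags, a ratio of 3.11 (1.80 to 5.62).

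HSPA1A and HSPA1B encode the stress-inducible HSP70 proteins, which bind unfolded polypeptides, and lie 12195 bp apart on chromosome 6 as near-identical copies. The coding parts could hardly be measured. Reads of 50 nt fit a single place in the genome for only 26.4% of start positions in HSPA1A and 29.8% in HSPA1B, and the authors kept uniquely aligned reads. Upstream of the start the copies differ, and within 500 bp of the TSS 70.7% and 70.6% of positions were unique. The 2 genes were occupied at different places. HSPA1B had a peak over its TSS (chr6:31794347-31795830) with 81 tags (64.3 to 101), a fold enrichment of 5.01 and a summit at +32 bp, in the 5′ untranslated region. The signal map had a further maximum in this interval, 19 tags per bin at −266 bp from the TSS against 17 at +22 bp, with 4 at −106 bp between them. The promoter peak of HSPA1A (chr6:31782272-31782894) held 30 tags (20.2 to 42.8) at a fold enrichment of 16.96, but its summit lay at −758 bp, and 498 bp into the neighbouring HSPA1L gene, which is transcribed the other way. Within 500 bp of its own TSS HSPA1A had 23 ChIP tags (14.6 to 34.5) and HSPA1B had 51 (38 to 67.1), so the counting intervals did not overlap. The input held 11 and 21 tags there, and the ratios of ChIP to input, 2.09 (0.979 to 4.75) for HSPA1A and 2.43 (1.44 to 4.25) for HSPA1B, overlapped broadly. The HSPA1B peak lay on unique sequence for 92.7% of positions and the HSPA1A peak for all of them.

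The CCAAT box and the heat shock units of the HSPA1B promoter are shown because they lie just upstream of its summit, and the CCAAT box of the upstream HSPA1A peak because it lies at −64 bp from that summit. Capitals mark the match, ATTGG being CCAAT read on the other strand. The HSPA1B sequences are chr6:31795435-31795464 and chr6:31795399-31795428 and the HSPA1A sequence is chr6:31782484-31782513, all on the plus strand.
HSPA1B: tcgagcttggtgATTGGctcagaaggggaa
HSPA1B heat shock units: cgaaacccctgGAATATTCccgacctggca
HSPA1A upstream: tggctgctccgaCCAATcaatctgaagcca
Relative to the summit of HSPA1B the CCAAT box was centred at −98 bp, the facing heat shock units at −133.5 bp and a TATAAA string at −58.5 bp. In HSPA1A a pair of facing units lay 29.5 bp downstream of the upstream summit. From −250 to +50 bp of the TSS both genes held 2 CCAAT boxes, both in the full NF-Y string, 1 pair of facing heat shock units, 1 GC box and 1 TATAAA string.

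HSPA8 encodes the constitutive member of the HSP70 family, HSC70. Its peak (chr11:122932070-122933837) held 129 tags (108 to 153) at a fold enrichment of 8.32, with the summit at −14 bp from the nearest TSS and −85 bp from the canonical one. In tags it stood above 91.7% of promoter peaks, and its width of 1768 bp above 95.3%. The input signal in the interval was also high, reaching 13 tags per bin, above 99.0% of promoter peaks. That maximum lay away from the summit, at +635 bp from the canonical TSS, where SOX9 was at 8. At the SOX9 maximum of 31, at −69 bp, input was at 3. Within 500 bp of the TSS there were 92 ChIP and 20 input tags, a ratio of 4.6 (2.81 to 7.88). CCAAT boxes were centred at −12 and −42 bp from the summit, and a run of 3 heat shock units at +36 bp. A copy of the SOX9 consensus lay at +90 bp, the only one within 100 bp of a summit in the 11 promoter peaks, against 7.68% of all promoter peaks. The first sequence (chr11:122932927-122932956, minus strand) holds the CCAAT box closest to the summit, and the second (chr11:122932879-122932908, minus strand) the 3 units.
HSPA8: cagccgggcgtctATTGGccggggaagccg
HSPA8 heat shock units: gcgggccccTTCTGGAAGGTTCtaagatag

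HSPH1, which encodes the HSP110 protein that exchanges nucleotide on HSP70, had the most tags of the set. The peak (chr13:31734706-31737186) held 275 tags (243 to 310), above 99.0% of promoter peaks, over 2481 bp, with a summit at −27 bp from the nearest TSS and −162 bp from the canonical one. The SOX9 signal reached 52 tags per bin and the input signal 18, and the fold enrichment was 4.96, above only 1.48% of promoter peaks. Input was high over the whole neighbourhood. The 1 Mb window around HSPH1 held 12164 input tags, 2.83 times the median of autosomal windows, whereas the windows of the other 9 genes lay between 0.593 and 1.21 times that median. Within 500 bp of the TSS there were 160 ChIP tags (136 to 187) and 63 input tags (48.4 to 80.6), a ratio of 2.54 (1.89 to 3.46) that overlapped those of all other genes of the set. The part of this high input in the number of peak tags was not tested. The signal had a second maximum about 500 bp upstream of the TSS, where the input also had its maximum. CCAAT boxes were centred at +11 and −57 bp from the summit, the latter in the full NF-Y string. The sequence below (chr13:31736169-31736198, minus strand) is shown because it holds the CCAAT box closest to the summit and a pair of facing heat shock units side by side.
HSPH1: gcccATTGGgtagaatctTTCCAGAAggct
A run of 3 heat shock units was centred 109 bp downstream of the summit, at −59 to −47 bp from the canonical TSS, and thus fell just outside the window of 100 bp.

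HSP90AA1 and HSP90AB1 encode the inducible and the constitutive cytosolic HSP90, which hold kinases and steroid receptors in an activatable state. Their peaks were modest and about equal in height. The HSP90AA1 peak (chr14:102553173-102553886) held 37 tags (26.1 to 51.0) at a fold enrichment of 10.71, with the summit at −88 bp. The HSP90AB1 peak (chr6:44214415-44215450) held 62 tags (47.5 to 79.5) at a fold enrichment of 9.89, with the summit at −36 bp from the nearest TSS and −50 bp from the canonical one. SOX9 reached 19 and input 6 tags per bin in both. Near the TSS the ratio of ChIP to input was 3.73 (1.88 to 8.04) for HSP90AA1, from 41 and 11 tags, and 4.46 (2.42 to 8.88) for HSP90AB1, from 58 and 13 tags. The sequences under the summits differed. HSP90AA1 had no CCAAT box in the whole peak interval, and its summit lay on heat shock units, the closest facing pair being centred 3.5 bp away. The sequence (chr14:102553441-102553470, minus strand) holds 3 units in a row and another facing pair.
HSP90AA1: cTTCCGGAAGGTTCgggaggcTTCTGGAAa
HSP90AB1 had neither a CCAAT box nor a facing pair within 100 bp of its summit. Its nearest CCAAT box was centred at −364 bp from the summit, and of the strings searched only the GC box was found within 100 bp.

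DNAJB1 encodes HSP40, the J protein that delivers substrates to HSP70 and stimulates its ATPase. The peak at its canonical TSS (chr19:14628529-14629778) held 56 tags (42.3 to 72.7), the median of promoter peaks, with a summit at +29 bp in the 5′ untranslated region. Its fold enrichment of 7.14 stood above only 19.4% of promoter peaks. SOX9 reached 16 tags per bin and input 5. A pair of facing heat shock units was centred at −72.5 bp from the summit, and a CCAAT box in the full NF-Y string at −135 bp, outside the window of 100 bp. Both are shown, from chr19:14629238-14629267 and chr19:14629301-14629330 on the minus strand.
DNAJB1: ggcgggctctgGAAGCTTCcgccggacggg
DNAJB1 CCAAT: aagggcggcggcgATTGGccggcgccgcgg
The strongest SOX9 signal near DNAJB1 was not at this TSS. A narrow peak of 564 bp (chr19:14630631-14631194), with its summit at −1766 bp from the nearest TSS of the gene and in an intron of its longer transcripts, held 58 tags at a fold enrichment of 26.79, above 93.6% of promoter peaks. SOX9 reached 46 tags per bin there and input 4. This peak held no CCAAT box and a copy of the SOX9 consensus 34 bp from the summit, shown in capitals (chr19:14630937-14630966, minus strand).
DNAJB1 upstream: actcatataaacTTCAAAGccctcatgatg
A further peak with 29 tags (19.4 to 41.6) lay at −167 bp from an alternative DNAJB1 TSS, far upstream of the canonical one, and at −66 bp from TECR. It held 3 CCAAT boxes within 100 bp of its summit, all in the full NF-Y string.

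HSPD1 and HSPE1 encode the mitochondrial chaperonin HSP60 and its cap HSP10, and are transcribed away from each other from canonical TSSs 539 bp apart. They shared a single SOX9 peak (chr2:198364196-198365404) in the interval between them, which is counted under both genes and is not an independent value for each. It held 96 tags (77.8 to 117) at a fold enrichment of 12.73, above 83.3% and 69.1% of promoter peaks, and SOX9 reached 42 tags per bin against 9 for input. The summit lay at −157 bp from the canonical TSS of HSPD1 and at −382 bp from that of HSPE1, hence on the HSPD1 side. No CCAAT box lay within 500 bp of the summit. A cluster of overlapping runs of heat shock units lay 74.5 to 84.5 bp from it on the HSPE1 side, and is shown on the plus strand (chr2:198364786-198364815).
HSPD1 and HSPE1: gctcggTTCCAGAACTTTCCAGAAaatgcc
Within 500 bp of the TSS there were 88 ChIP and 21 input tags for HSPD1, a ratio of 4.19 (2.58 to 7.1), and 77 and 15 tags for HSPE1, a ratio of 5.13 (2.93 to 9.61), in windows that overlap. The HSPE1 value depended on the window, since the summit lies at −382 bp from its TSS. Within 250 bp it was 2.40 (1.11 to 5.62). A second promoter peak of HSPD1 (65 tags, fold enrichment 18.9) lay by an alternative TSS and at −63 bp from MOB4, the neighbouring gene.

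**Figure D1:**
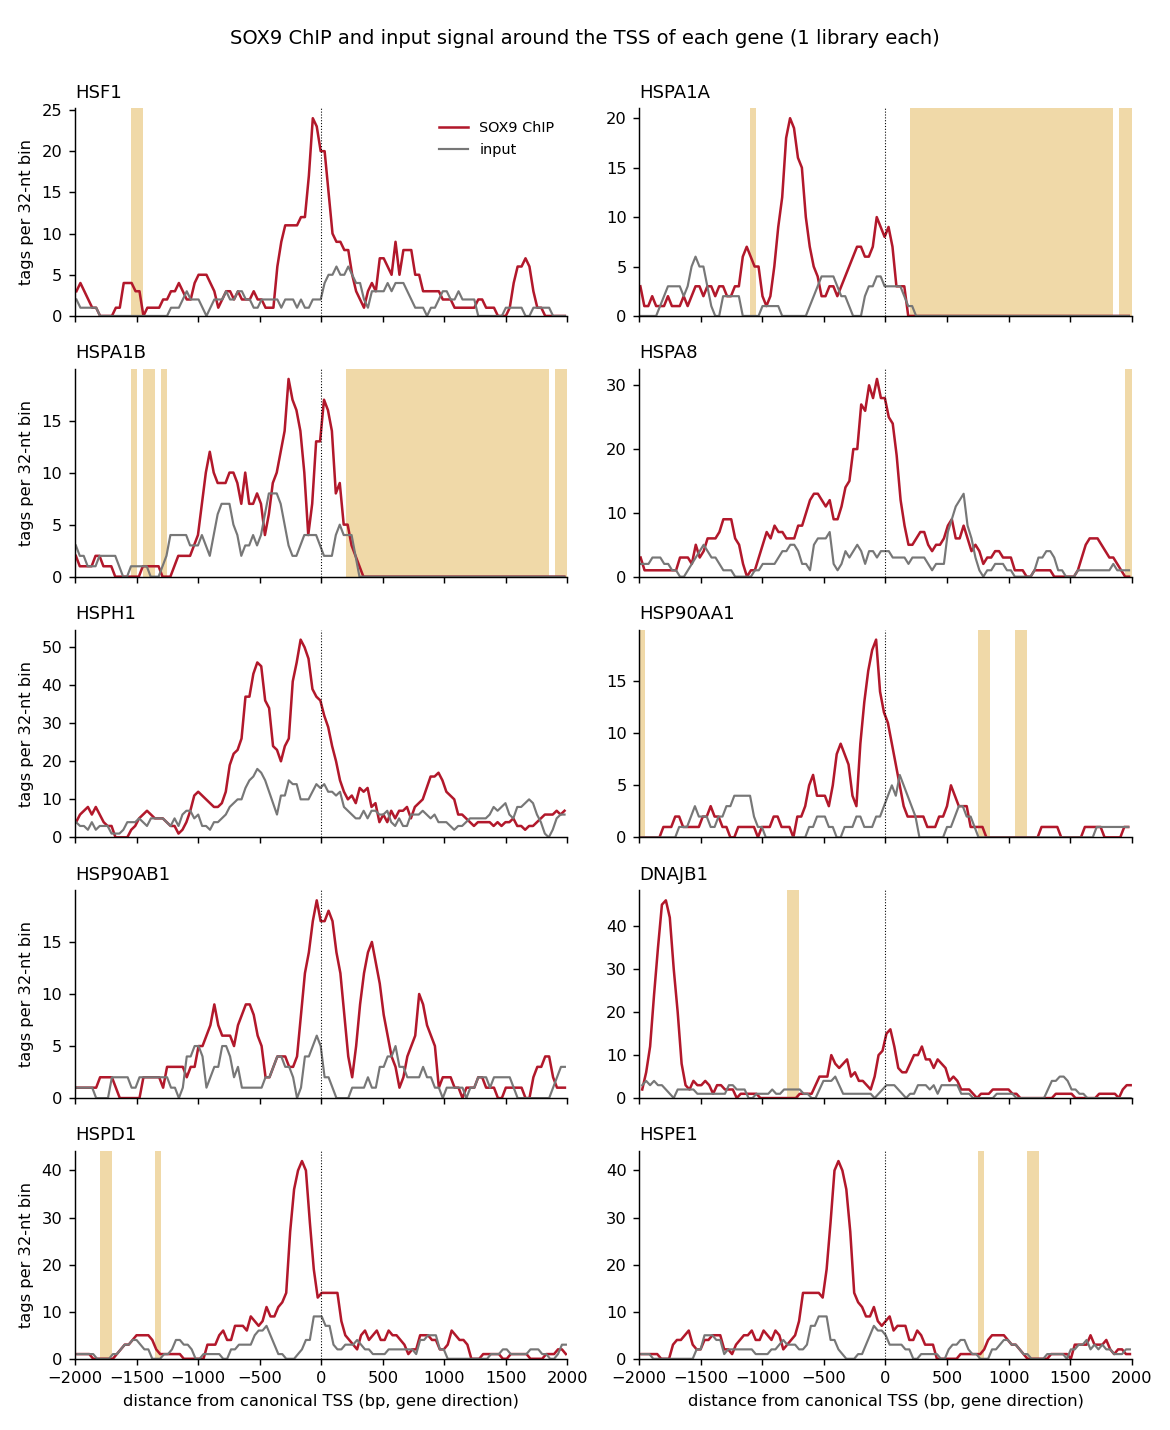
SOX9 ChIP signal (red) and input signal (grey), in tags extended to 150 bp per bin of 32 nt, from 2 kb upstream to 2 kb downstream of the canonical TSS of each gene, with shaded stretches where most reads of 50 nt would not align to a single place. Signal gathers just upstream of the TSS in most panels, the maximum of the HSPA1A panel lies at the upstream peak, that of the DNAJB1 panel at the left edge, and both libraries are at 0 over the shared part of HSPA1A and HSPA1B.

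In 10 of the 11 promoter peaks the summit lay within 100 bp of the nearest TSS of a protein-coding gene, against 63.2% of all promoter peaks. These TSSs include those of transcripts not typed as protein-coding, as for HSPA8, HSPH1 and the peak shared by HSPD1 and HSPE1. From the canonical TSS the HSPH1 summit lay at −162 bp, and the shared summit lay at −157 bp from that of HSPD1. The summit lay upstream of the nearest TSS of a protein-coding gene in 8 of the 11, against 70.5%. For 3 of them, the peaks at HSPA1L, TECR and MOB4, the nearest TSS was that of another gene, and the summits of these lay at −758 bp from HSPA1A, −167 bp from DNAJB1 and +753 bp from HSPD1.

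Sequence was searched on both strands within 100 bp of each summit for CCAAT, the NF-Y core, and for the full NF-Y string, in which 2 purines precede CCAAT and C or G and then a purine follow it. The CCAAT core was present in 6 of 11 promoter peaks, and thereby in 6 of 10 genes (HSF1, HSPA1A, HSPA1B, HSPA8, HSPH1 and, at its TECR-side peak, DNAJB1), against 30.7% of all promoter peaks. The full string was present in 3 genes, HSPA1A, HSPH1 and DNAJB1, against 14.8% of all promoter peaks. Of these 3 summits only that of HSPH1 was closest to the gene named. The closest protein-coding gene was HSPA1L for the HSPA1A peak and TECR for the DNAJB1 peak. The peak at the canonical TSS of DNAJB1 had neither the core nor the full string within 100 bp. That of HSPA1B, centred at −98 bp, reached past the edge of the window and was not counted. Over the whole interval 10 of 11 peaks held CCAAT, against 61.5%, but 7 of the 11 intervals were wider than the median promoter peak. Within 50 bp of the summit CCAAT was found in 3 genes, so 3 of the 6 depended on boxes at −64 to −98 bp. The share of all promoter peaks within 50 bp is not given.

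Heat shock units were common under these summits. A pair of facing units, GAANNTTC or TTCNNGAA, lay within 100 bp of the summit in 6 of 11 promoter peaks, covering 7 of 10 genes, against 5.82% of all promoter peaks. A run of 3 units, GAANNTTCNNGAA or its reverse complement TTCNNGAANNTTC, lay there in 3 of 11, at HSPA8, HSP90AA1 and the HSPD1 and HSPE1 peak, against 0.185% of all promoter peaks, that is 16 peaks. The other 13 included 3 within 1 kb of a TSS of further chaperone genes, DNAJB6, HSPB1 and CCT4, the last at a summit closer to COMMD1. Windows of the same width 1 kb to either side of promoter summits held the facing pair in 9.27% and the run of 3 in 0.225% of cases, so neither string was concentrated at SOX9 summits over all promoter peaks, whereas CCAAT was found in 21.6% of those side windows. Promoters of this class are known for such units, so the counts describe where in them the summits fell. Of the 11 peaks 3 held both a CCAAT box and a facing pair (HSPA1A, HSPA8 and HSPH1), and 2 held neither (HSP90AB1 and the MOB4-side peak of HSPD1).

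The promoters themselves, taken from −250 to +50 bp of the canonical TSS irrespective of peaks, were searched as well. CCAAT was present in 6 of 10, against 36.0% of 19881 promoters, and 2 or more copies in 4 of 10, against 12.3%. GAANNTTC was present in 7 of 10 against 5.42%, TTCNNGAA in 4 against 6.22%, and the run of 3 units in 4 (HSPA8, HSPH1, HSP90AA1 and HSPD1) against 0.362%. The GC box GGGCGG was present in all 10, against 61.4%, and TATAAA in HSPA1A and HSPA1B only, against 9.62%. The SOX9 consensus, A or T, A or T, CAA, A or T and then G, was found in the promoter of HSPA8 only, against 15.0% of all promoters.

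The ratio of ChIP to input tags within 500 bp of the canonical TSS placed HSPE1 first (5.13), followed by HSPA8 (4.6), HSP90AB1 (4.46), HSPD1 (4.19), DNAJB1 (4.17), HSP90AA1 (3.73), HSF1 (3.11), HSPH1 (2.54), HSPA1B (2.43) and HSPA1A (2.09). No neighbours in this order differed beyond counting error, and the intervals overlapped in all 45 pairs of genes. The interval lay above 1 in 9 of 10 genes, the exception being HSPA1A, as it did for 52.1% of all genes and 92.5% of genes with a promoter peak. The median ratio was 3.95, against 2.45 for all genes and 3.51 for genes with a promoter peak (quartiles 2.76 and 4.77). In ChIP tags alone the order was led by HSPH1 (160), HSPA8 (92) and HSPD1 (88), and the intervals lay apart in 24 of 45 pairs. The order in tags and the order in ratio thus differed, chiefly for HSPH1. The order in ratio also depended on the window. Within 250 bp HSPE1 was last at 2.40, and within 1 kb HSPA1A was first at 3.71 (2.03 to 7.26). The window of 1 kb takes in the HSPA1A peak at −758 bp.

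In the rest of each canonical transcript, from 1 kb downstream of its TSS to its end, no gene had a ratio interval wholly above 1. The ratio lay between 0.421 for HSP90AA1 and 1.5 for DNAJB1 in the 8 genes other than HSPA1A and HSPA1B. For 9 of 10 genes its interval held 1, and the share of all genes for which it did so is not given. HSPH1 was the exception with a ratio of 0.822 (0.712 to 0.948), from 355 ChIP and 432 input tags, 13.7 and 16.6 tags per kb. HSPA1A and HSPA1B had 4 ChIP and 1 input tags and 3 ChIP and 6 input tags there, with ratios of 4.0 (0.396 to 197) and 0.50 (0.0809 to 2.34), in sequence that is mostly not unique. By these ratios SOX9 enrichment was seen within 500 bp of the TSS in 9 of 10 genes, all but HSPA1A. The interval of HSPA1A lay above 1 only in the window of 1 kb. Over the rest of the canonical transcript no interval lay wholly above 1 in the 8 genes other than HSPA1A and HSPA1B. Some of these intervals rest on few tags, as for DNAJB1 with 15 ChIP and 10 input tags (0.630 to 3.73), so they do not show that enrichment was absent. In HSPA1A and HSPA1B that part could hardly be measured. The DNAJB1 peak at −1766 bp lies upstream of the stretch counted for that gene.

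**Figure D2:**
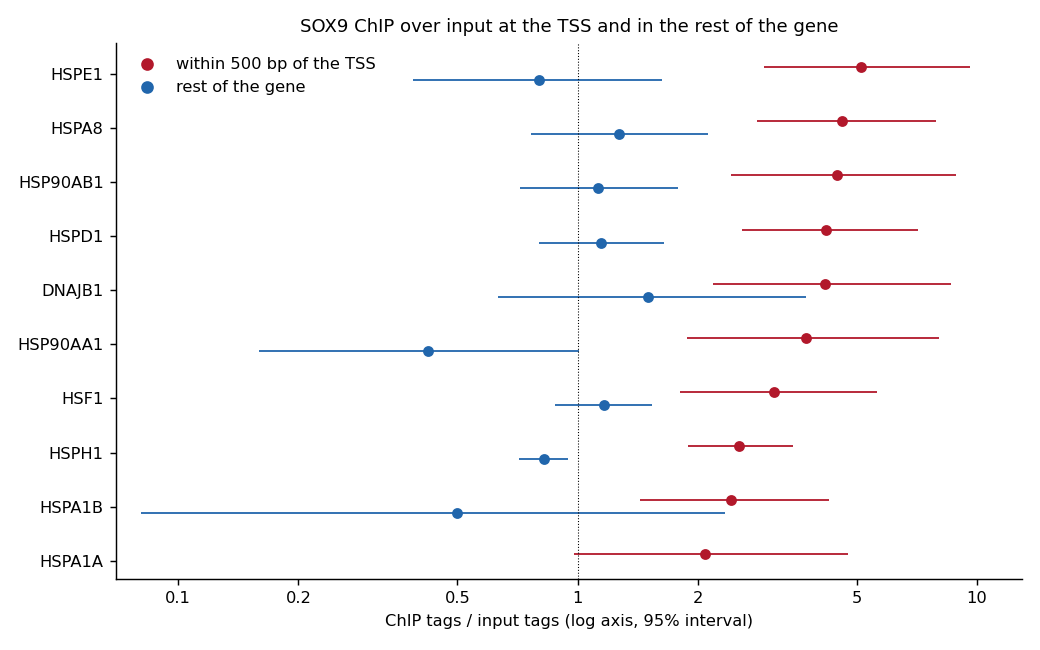
Ratio of ChIP to input tags within 500 bp of the TSS (red) and in the rest of the gene (blue) on a log axis, with exact 95% intervals that cover counting error, for each gene in the order of the red values. HSPA1A has no blue point because it rests on 5 tags in all. The red intervals lie above 1 in 9 of 10 genes, HSPA1A being the exception, and the blue ones hold 1 or lie below it.

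The 7 other peaks in or within 10 kb of the genes held a median of 58 tags (31 to 76). The peak at SLC35B2 lay within 1 kb of the TSS of another protein-coding gene. Of the 6 that did not, 0 had CCAAT within 100 bp of the summit, against 22.5% of all peaks farther than 1 kb from TSSs of protein-coding genes. The SOX9 consensus was present in 2 of the 6, against 32.7%. The SLC35B2 peak had neither. The 2 peaks with the consensus were those of highest fold enrichment among the 7. The first was the peak upstream of DNAJB1, and the second lay downstream of HSP90AA1 (chr14:102537430-102538288), with 58 tags, a fold enrichment of 16.36 and signals of 35 tags per bin for SOX9 and 5 for input. The consensus copy was centred at −9 bp from that summit and is shown in capitals (chr14:102537799-102537828, minus strand).
HSP90AA1 downstream: caccaaaatctgAACAAAGatgccattatg
Of the other 5, 4 were closest to the start of another gene. Of these, 3 lay at −79 bp from SLC35B2 (76 tags), at −8 bp from the non-coding gene SNHG32 (59 tags), and at −395 bp from a non-coding transcript between HSPA1A and HSPA1B (54 tags). Another, with 49 tags, lay upstream of HSP90AB1 at +5585 bp from the nearest TSS of SLC29A1. The remaining peak, with 31 tags, lay at −9303 bp from the nearest TSS of HSPA8.

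A wider list of 76 genes of the chaperone network was counted by family membership. A promoter peak was present in 51 of 76 (67.1%), against 44.8% of all protein-coding genes, with a median of 61 tags, and 19 of these 51 had CCAAT within 100 bp of the summit, a share near the 30.7% of all promoter peaks. The families differed in their counts. All 8 subunits of the cytosolic chaperonin, which folds actin and tubulin, had a promoter peak, led by CCT5 (235 tags) and CCT6A (141 tags), and 6 of the 8 had CCAAT, beside the same 30.7%. J proteins had a peak in 17 of 19 genes, led by DNAJC5 (130 tags) and DNAJB11 (114 tags), with DNAJA4 without one. Co-chaperones had one in 15 of 21, and STIP1, which couples HSP70 to HSP90, had the largest peak of the list with 403 tags at a fold enrichment of 57.8, followed by SUGT1 (94 tags). AHSA1 had none.

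The organelle HSP90 genes, HSP90B1 of the endoplasmic reticulum (156 tags) and TRAP1 of mitochondria (66 tags), both had a promoter peak. Among other HSP70 and HSP110 genes 5 of 12 did, led by HSPA5 (144 tags), the HSP70 of the endoplasmic reticulum, and HYOU1 (127 tags), while HSPA4 did not. The 5 include HSPA1L, whose peak is the same one counted above as the promoter peak of HSPA1A. Small heat shock proteins had a peak in 3 of 10 genes, HSPB6 (272 tags, at an alternative TSS), HSPB11 (61 tags) and HSPB1, with HSPB2 without one. Of a group of 4 genes, the other heat shock factors HSF2, HSF4 and HSF5 and the factor-binding protein gene HSBP1, only HSF2 had a peak, with 42 tags. The families hold between 2 and 21 genes, and no difference between them was tested.

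**Figure D3:**
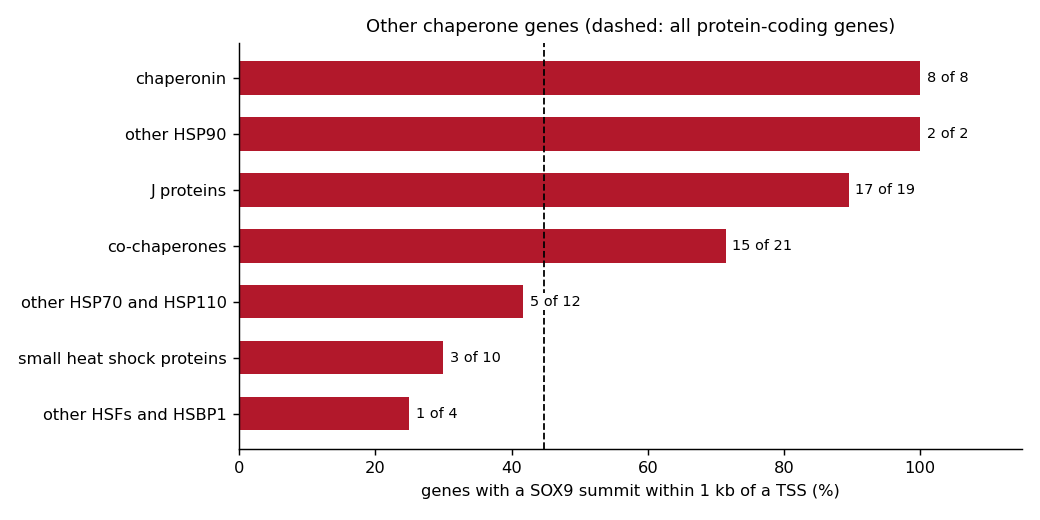
Share of genes with a promoter peak in 7 families of the wider chaperone list, with the counts beside the bars and the share of all protein-coding genes (44.8%) as a dashed line. The chaperonin and organelle HSP90 genes are at 100%, and the small heat shock proteins and the group of other heat shock factors and HSBP1 at 30% and 25%.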

How the data were processed

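SOX9 ChIP-seq of HT-29 cells was analysed from 1 ChIP and 1 input library. Per the submitters' processing notes and the study's methods, the authors aligned reads to hg19 with BWA, kept unique alignments without duplicates, reduced the input to the ChIP tag number, and ran MACS 1.3.7.1 for peak calling at a p cut-off of 1e-07, with a tag size of 50 and a band width of 150. The deposited peak table holds the tag count of each peak, the fold enrichment, which is a ratio to the local input, a score of −10 log10 of the MACS p-value, and an FDR in percent. The deposited signal maps give, per bin of 32 nt, how many tags cover it once extended to 150 bp, unscaled. Each tag adds to 5 bins, so tags of a window were taken as the signal sum divided by 5.

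Genes and TSSs were from GENCODE release 44 on hg19, whereas the study used RefSeq. Peaks with a summit within 1 kb of any TSS of a protein-coding gene were promoter peaks. The canonical transcript was the one so tagged in the annotation. Motifs were searched on both strands as exact strings. Tag intervals were exact Poisson and ratio intervals Clopper-Pearson at 95%, and cover counting error only. Uniqueness was the share of start positions whose 50-nt string occurs at a single place in hg19 on either strand. No test was made, since there is 1 library per condition. The members and lists were chosen with earlier results of these data known. Named in the text are all members and, for each family of the wider list of 76 genes (HSPB11 is IFT25 in the annotation), up to 2 genes with the promoter peak of most tags and the first listed gene without one. DNAJB6, HSPB1, CCT4, COMMD1, HSF5, HSBP1, TECR, MOB4, HSPA1L, SLC35B2, SLC29A1 and SNHG32 were named after their values were seen. Alternatives were other TSS sets, 3 kb, a score of at least 100, the interval midpoint, other windows for CCAAT and for the TSS, and the highest signal in place of tags. Motif search, window sums and intervals were tested on simulated data. The software was matplotlib 3.10.9, pysam 0.24.0, pandas 2.3.3, SciPy 1.17.1, NumPy 2.4.6 and Python 3.11.15.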

Additional observations from a re-analysis of the deposited data

How the results depend on the processing

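All 10 genes kept a promoter peak with coding transcripts only, within 3 kb, with a score of at least 100 and by the interval midpoint. The shares of all protein-coding genes under these settings are not given, so the counts say only that the members kept their peaks. With the 5′-most coding TSS 7 did, against 38.9% of all genes, HSPD1 among them only through its peak beside MOB4. The number of genes with CCAAT near a promoter summit, 6 within 100 bp, was 3 within 50 bp, 3 for the full NF-Y string and 3 around the interval midpoint, but 9 over the whole interval. The shares of all promoter peaks within 50 bp and around the midpoint are not given, so the lower counts there cannot be set against them. The median of 65 tags became 20 when the highest SOX9 signal was taken, which is another quantity. Of the ratios at the TSS, that of HSPE1 fell from 5.13 to 2.40 within 250 bp. That of HSPA1A rose from 2.09 to 3.71 (2.03 to 7.26) within 1 kb, where its interval lay above 1. The wider list had 51 genes with a promoter peak, or 44 with a score of at least 100, where the share of all genes is not given either. No paired analysis was possible because there is 1 library per condition, and for the same reason no library could be left out. The ratio intervals overlap for every pair of genes, which does not show that the ratios are equal. The part of depth in this overlap was not tested.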
